A study of Saccharomyces cerevisiae with 13 samples.

Results

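The first entry of budding yeast (Saccharomyces cerevisiae) into S phase after release from alpha factor was compared with the entry that followed 60 min later. The comparison took the arrays at 10, 20 and 30 min against those at 70, 80 and 90 min, 6 of the 13 arrays of the time course. Each array was paired with the one 60 min after it, so that 10 min was set against 70 min, 20 min against 80 min and 30 min against 90 min. All time points came from cells arrested with alpha factor, the pheromone of the opposite mating type, and then released into YEPD, a rich medium. Each was labelled with Cy5 and hybridised against a Cy3-labelled reference, a culture grown overnight in YEPD without synchronization. No array was repeated, and the strain is not given in the labels used here. Per gene, the mean and spread of the 3 paired differences were computed on the log2 scale, with values at the ends of the measuring range (100-fold in either direction) treated as missing.

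Entry into the cycle at Start is triggered when the G1 cyclin Cln3 with its kinase Cdc28 relieves the repressor Whi5, so that the transcription factors SBF and MBF switch on the G1/S genes: further cyclins, replication enzymes, repair factors and genes of bud growth. Alpha factor holds MATa cells before Start through Far1, which inhibits the G1 cyclins with their kinase. A separate wave is transcribed as cells leave mitosis, when Swi5 and related factors enter the nucleus and switch on genes for septum digestion, for the kinase inhibitor Sic1 and for daughter cell fate. Histone genes are transcribed in S phase, and the genes of the Clb2 group later, in G2 and mitosis.

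The sides of the comparison differed in more than the cycle. The sample titles carry file stamps, and the 4 arrays from 0 to 30 min share a stamp that differs from that of the 9 arrays from 40 to 120 min. What the stamps record is not stated, nor whether the sets belong to the same culture or share their reference RNA. Stamp and cycle therefore cannot be told apart in any difference between 10 to 30 and 70 to 90 min. The direction of the ratio was taken as time point over reference and is only likely. The median log2 ratio of the 23 measured genes used in mating was 2.22 at 0 min, when the cells had just left the pheromone. Across genes, paired arrays correlated at r = 0.569 for 10 with 70 min, 0.625 for 20 with 80 min and 0.607 for 30 with 90 min, as a description over genes that share the same reference. The spread of log2 ratios over genes was wider on the earlier side, with SDs of 0.627, 0.502 and 0.454 at 10, 20 and 30 min against 0.325, 0.348 and 0.342 at 70, 80 and 90 min. Values at the limit were also more frequent there, 178 against 13.

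The timing of G1/S transcription was first set against the label. The median log2 ratio of the 40 replication and repair genes measured was -0.43 at 0 min, 0.79 at 10 min, 0.89 at 20 min and 0.21 at 30 min. It was -0.32 at 40 min and -0.33 at 50 min. It came back to 0.23 at 70 min, 0.42 at 80 min and 0.16 at 90 min. Of the 38 with all 3 paired differences, 23 were highest at 20 min among the first 3 arrays and 24 were highest at 80 min among the second. The 10 histone genes, whose products package newly made DNA, had their highest value at 30 min and again at 90 min in 10 of 10 cases. Their medians were -2.13, 0.22 and 0.80 at 10, 20 and 30 min and -1.41, 0.12 and 0.63 at 70, 80 and 90 min. Both waves thus lay in the windows named as G1/S, 60 min apart.

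**Figure D1:**
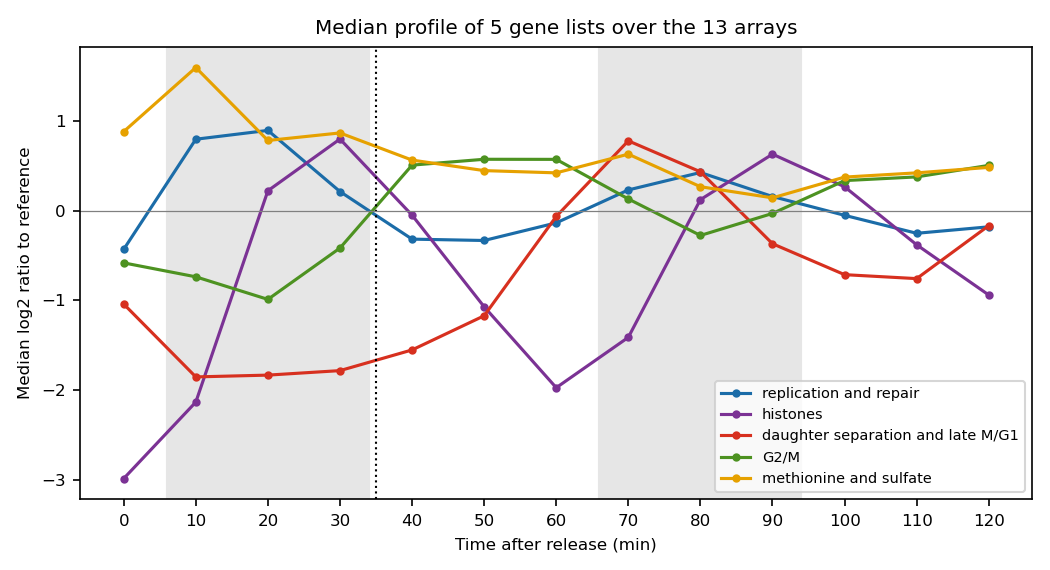
Median log2 ratio to the reference (vertical axis) of 5 gene lists on each of the 13 arrays, by time after release in min (horizontal axis); grey bands mark 10 to 30 and 70 to 90 min, and the dotted line separates the file stamps. Replication and repair genes peak at 20 and 80 min and histones at 30 and 90 min, while the daughter separation genes stay near -1.8 at 10 to 30 min and reach 0.78 at 70 min.

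Of 6205 genes on the arrays, 5957 had all 3 paired differences and were tested, and 174 of the 248 others lacked one because of a value at the limit. With limma's moderated test and Benjamini-Hochberg adjustment at 0.05, 57 genes were higher at 10 to 30 min (0.957% of those tested) and 54 were lower (0.906%). The 3 differences are 3 positions in the cycle, each measured once, so the p-values describe the spread over positions and not between repeated samples. All 111 genes had 3 differences of the same sign, and in 104 the arrays of the sides did not overlap. The test itself selects genes whose differences are large against their spread, so these counts describe the calls and are no separate support. Across all tested genes the arrays did not overlap in 731 with the earlier side higher (12.3%) and 792 with it lower (13.3%). A mean difference of at least 2-fold with all pairs one way was seen in 39 genes on the higher side (0.655%) and in 56 on the lower side (0.94%), and 56 of these 95 passed the test. The count depends on the settings. It was 10 with a trend in the prior variance. That trend followed the mean size of a gene's own differences, so it rests on the values tested and is no separate check. The count was 2 with the values at the limit kept, when 6111 genes were tested. It was 0 with no variance shared between genes, where 800 genes had an unadjusted p under 0.05 against 1261 in the main fit. It was 27 without the pair of 10 and 70 min, 8 without that of 20 and 80 min and 244 without that of 30 and 90 min. The bulk arrays cannot tell fewer cells transcribing a gene from less RNA per cell.

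The genes that set the sides furthest apart were those of the exit from mitosis, and they were lower after the release. Of 18 genes of daughter separation and late M/G1, 14 passed the test as lower at 10 to 30 min and none as higher. These 18 genes had a median difference of -2.06 log2 against 0.00 over all genes tested, and 77.8% were called against 1.86%. Their median ratio was -1.85, -1.83 and -1.78 at 10, 20 and 30 min, and 0.78, 0.43 and -0.37 at 70, 80 and 90 min. The list was written with earlier results of these data known, so its count is a description. At 0 min, on the stamp of the earlier side, the list's median was -1.04, with members on both sides of 0. AMN1 was at 0.62 there and EGT2 at -3.04. The list was also low on 2 arrays of the later stamp, with medians of -1.55 at 40 min and -1.17 at 50 min, before it came to -0.07 at 60 min. The count of 14 was 7 with a trend in the prior variance, 0 with the values at the limit kept or with no shared variance, 9 with pairs 50 or 70 min apart, 5 without the pair of 10 and 70 min and 3 without that of 20 and 80 min. By sign, 16 or 17 of the 18 mean differences stayed below 0 in each of the 13 alternatives.

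EGT2, which encodes a wall protein needed for timely cell separation, had the largest difference of all genes tested. Its log2 ratio was -3.26, -3.85 and -3.80 at 10, 20 and 30 min, and 1.28, 0.79 and -0.66 at 70, 80 and 90 min. All 3 earlier arrays lay below all 3 later ones, with a mean difference of -4.11 ± 0.29 (3 pairs, limma adjusted p = 0.007579), a 17.3-fold lower level. Here and below, ± gives limma's moderated SE, which uses a variance shared in part between genes. The SD of the 3 EGT2 differences was 0.83. DSE2, a wall glucanase-like protein made in daughter cells, was at -4.75, -4.41 and -3.77 against -0.62, 0.24 and -0.83, a mean difference of -3.91 ± 0.31 (limma adjusted p = 0.007579). It was still at -3.87, -4.10 and -3.73 at 40, 50 and 60 min. SCW11, another wall glucanase of the same group, was at -3.09, -2.87 and -3.08 and then at 0.33, 0.26 and -0.80. Its earlier values varied by little from array to array, and the groups did not overlap (mean difference -2.94 ± 0.22, limma adjusted p = 0.007579).

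DSE1, a daughter-specific protein, was at -3.19, -2.77 and -2.53 after the release and at -0.02, 0.33 and -0.13 a cycle later. The difference of -2.89 ± 0.17 had one of the lowest limma adjusted p-values, 0.005697, and the gene stayed called without any single pair. DSE4, which encodes the glucanase that digests the septum from the daughter's side, had a mean difference of -2.85 ± 0.29 and DSE3, found at the bud neck of daughters, one of -2.65 ± 0.31, both past the test. AMN1, an inhibitor of the mitotic exit network in daughter cells, was at -3.46, -2.81 and -3.12 against 0.54, 0.12 and -0.70, a difference of -3.12 ± 0.29 (limma adjusted p = 0.0114). Each of these 7 genes had its highest later value at 70 or 80 min.

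HO, the endonuclease that starts mating-type switching in mother cells, is in no list. It was at -2.46, -1.88 and -2.71 at 10, 20 and 30 min and at 0.56, 0.60 and -0.14 at 70, 80 and 90 min. The sides were well apart, with a difference of -2.70 ± 0.14 (limma adjusted p = 0.005697). ASH1, the repressor that keeps HO off in daughters, was at -0.35, -1.84 and -2.07 and then at 1.56, 0.36 and -0.73. Here the groups overlapped, because the value at 10 min lay above that at 90 min, yet each pair differed in the same direction (-1.82 ± 0.18, limma adjusted p = 0.01412). NIS1, a protein of the bud neck, had a mean difference of -2.39 ± 0.32 (limma adjusted p = 0.03145). PCL9, a cyclin of the kinase Pho85, RME1, a transcription factor that represses meiosis and promotes CLN2, and PRY3, a wall protein, also passed the test as lower, at -2.23, -1.88 and -1.55. They were named after their values were seen.

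Not every gene of the list took part. CTS1, the endochitinase that digests the primary septum, ranged from -0.13 to 0.13 on the 6 arrays, with a mean difference of -0.02 ± 0.11 (limma adjusted p = 0.9432). CYK3, a cytokinesis factor, had a mean difference of 0.12 and was the single member above 0. SUN4, a wall glucosidase-related protein, and TEC1, a transcription factor of filamentous growth, were at -1.50 and -1.31 with limma adjusted p-values of 0.06465 and 0.05523. CHS1, the chitin synthase that repairs the wall at separation, was at 0.35, -0.14 and -0.68 against 1.18, 0.83 and 0.04. Its difference of -0.84 was similar in the 3 pairs, and it passed the test although the sides overlapped (SE 0.11, limma adjusted p = 0.02997).

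**Figure D2:**
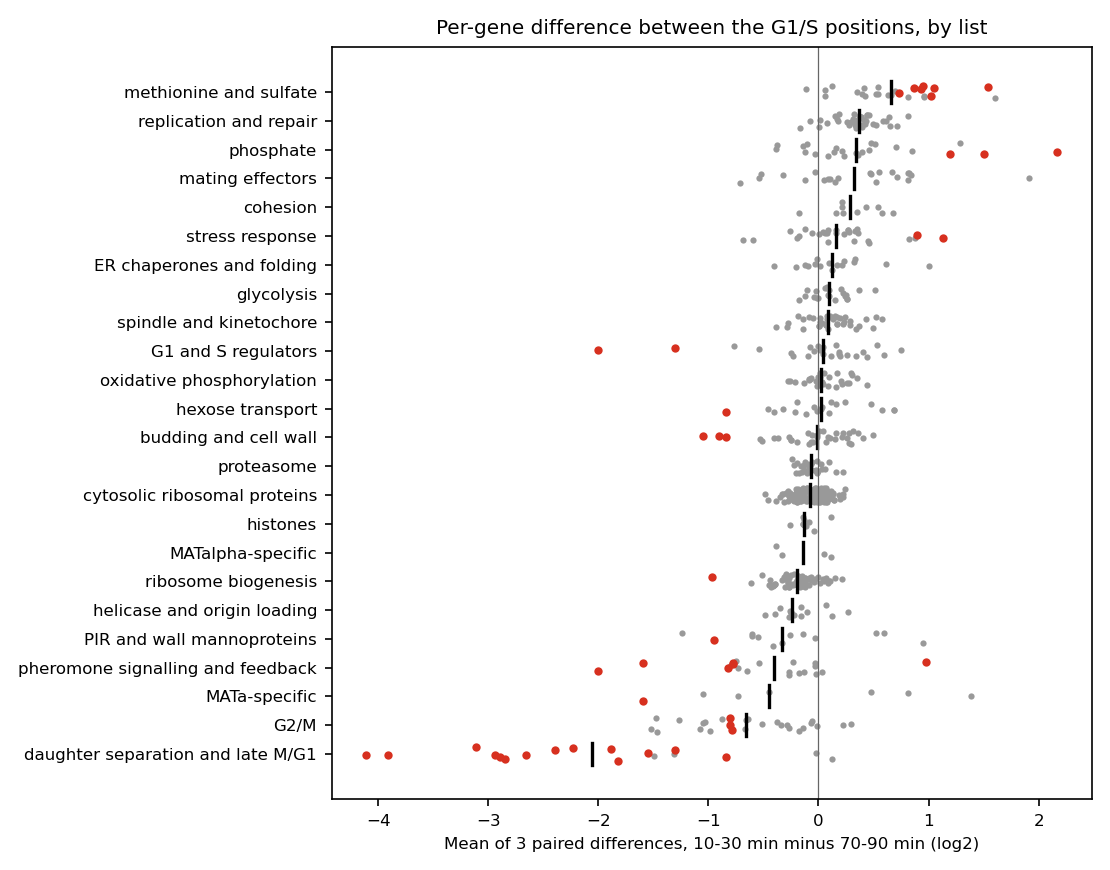
Mean of the 3 paired log2 differences, 10 to 30 min minus 70 to 90 min (horizontal axis), for each tested gene of 24 lists (rows); red points passed limma's test, grey points did not, black bars are list medians, and the vertical scatter within a row has no meaning. The daughter separation list lies lowest, with a median of -2.06 and 14 of 18 genes called. The methionine and sulfate list lies highest, with a median of 0.66 and 7 of 25 called. Over all tested genes 1.86% were called.

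Of the G1 and S regulators, SIC1 and FAR1 passed the test, both lower after the release. SIC1, whose product restrains the S phase cyclins until it is degraded, is also one of the 14 calls of daughter separation and late M/G1. It was at -0.86, -0.95 and -1.21 against 0.90, 0.44 and -0.46 a cycle later. All earlier values were below all later ones (difference -1.30 ± 0.20, limma adjusted p = 0.04172). FAR1, the inhibitor through which pheromone arrests the cell, stood at 1.71 at 0 min and at -2.01, -2.65 and -2.17 at 10, 20 and 30 min. At 70, 80 and 90 min it was at 0.55, -0.24 and -1.13, a difference of -2.0 ± 0.30 (limma adjusted p = 0.04052). It thus went from well above the reference to well below it between 0 and 10 min, on arrays of the same stamp. Neither call held after quantile normalization, in the unpaired fit, or without either of the pairs of 10 and 70 or 20 and 80 min.

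The G1 cyclins themselves overlapped between the sides and did not pass the test. CLN1 was at 1.38, 1.18 and 0.67 at 10, 20 and 30 min and at 0.95, 1.28 and 1.01 at 70, 80 and 90 min. The groups overlapped, and the mean difference was -0.0048 ± 0.16 (limma adjusted p = 0.9898). CLN2 was at 0.69, 0.70 and -0.16 against 0.07, 0.75 and 0.65, so that it was high at 10 min but not at 70 min, and at 90 min but not at 30 min. Its mean difference was -0.08 ± 0.26 (limma adjusted p = 0.8922). CLN3, the first cyclin to act, had its highest values on each side at 10 and 70 min, at 0.12 and 0.36, and a mean difference of -0.23 ± 0.18 (limma adjusted p = 0.4973).

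None of the other regulators of Start passed the test, and their mean differences lay on both sides of 0. CLB6, a cyclin of early S phase, was at 2.83, 1.45 and -0.12 after release and at 1.04, 0.66 and 0.19 a cycle later, so the groups overlapped and the 10 min array alone stood far above the rest (difference 0.75 ± 0.36, limma adjusted p = 0.2911). PCL1, a G1 cyclin of Pho85, was at 1.89, 1.10 and 0.62 against 0.37, 0.82 and 0.63, and SWI4, the DNA-binding part of SBF, at 1.91, 1.16 and 0.23 against 0.60, 0.96 and 0.41. In both the excess was at 10 min and to a lesser degree at 20 min, with limma adjusted p-values of 0.2886 and 0.3932. YOX1, a repressor of the early cell cycle box genes, reached 2.47 at 10 min against 1.18 at 70 min, with a mean difference of 0.54 ± 0.25. CLB5, the other S phase cyclin, stayed between -0.07 and 0.21 on the 6 arrays, and HCM1, a forkhead factor of S phase, between -0.04 and 0.59. Of the 26 regulators tested, SIC1 and FAR1 were the 2 that passed, both lower (7.69% called, against 1.86% of all tested genes). The median difference of the list was 0.04, or -0.0911 after quantile normalization.

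**Figure D3:**
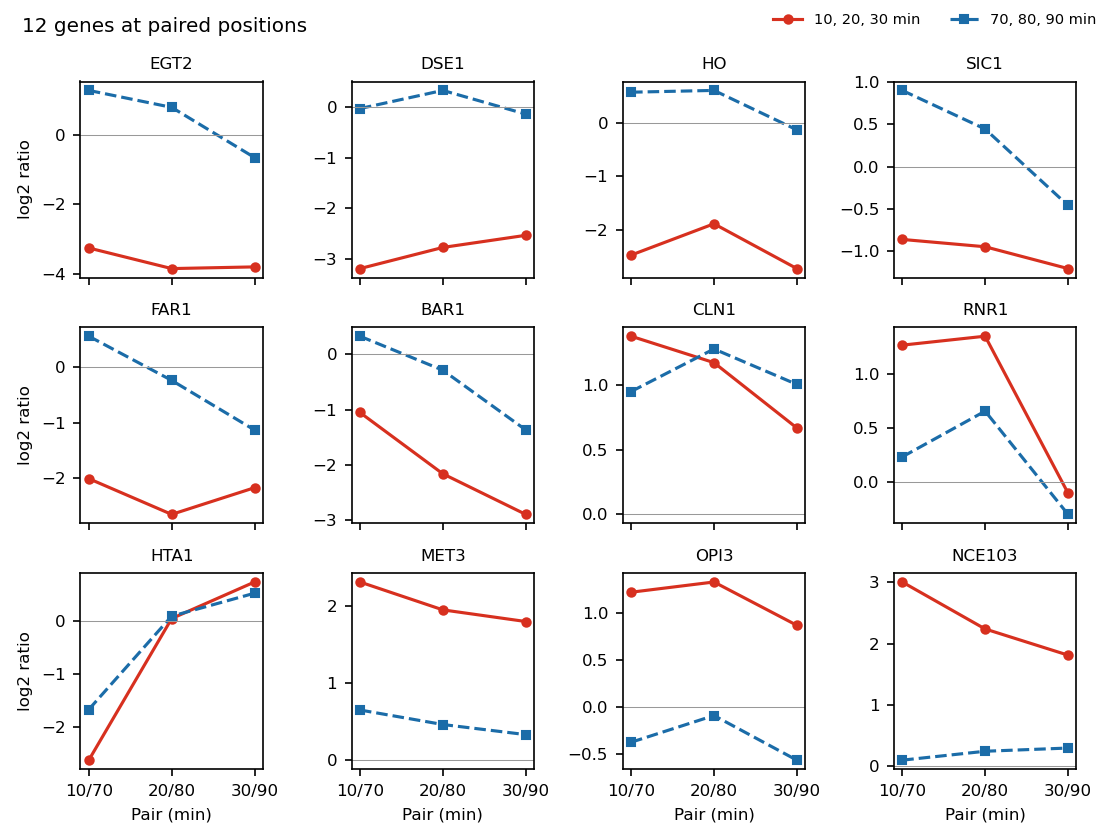
Log2 ratio to the reference (vertical axes, each with its own scale) of 12 genes at the 3 paired positions (horizontal axis, min of the earlier and later array); red circles are 10, 20 and 30 min and blue squares 70, 80 and 90 min, 1 array each. EGT2, DSE1, HO, SIC1 and FAR1 lie below the later arrays at every position, MET3, OPI3 and NCE103 above them, and CLN1 and HTA1 cross or run close.

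Replication and repair genes were mostly higher at the first entry, but no single gene passed the test. Of 38 tested, 36 had a mean difference above 0 and 2 below, with a median of 0.37 log2. In 8 the sides did not overlap, all with the earlier side higher (21.1%, against 12.3% of all tested genes). By pair the median difference was 0.53 at 10 and 70 min, 0.50 at 20 and 80 min and 0.02 at 30 and 90 min. The list had 5 calls without the pair of 30 and 90 min and 2 with pairs 70 min apart, all higher, and its median was 0.181 after quantile normalization. RNR1, the large subunit of ribonucleotide reductase, was at 1.27, 1.35 and -0.10 against 0.23, 0.66 and -0.30, a difference of 0.64 ± 0.17 (limma adjusted p = 0.1173). The first 2 arrays stood above all later ones and the third did not. POL1, the catalytic subunit of DNA polymerase alpha, had a mean difference of 0.43 ± 0.16 (limma adjusted p = 0.2117). The median range over 3 arrays was 0.68 at 10 to 30 min and 0.26 at 70 to 90 min, while over all genes these ranges were 0.29 and 0.24. The ranges were not rescaled for the wider spread of ratios on the earlier arrays, so they do not give the size of the wave by itself.

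The cohesion genes, a list of cohesin subunits with loaders and regulators such as PDS1 and ESP1, were above 0 in 9 of 10 cases. Their median was 0.29, and none passed. The median was 0.15 without the pair of 10 and 70 min, 0.187 after quantile normalization and 0.491 without the pair of 30 and 90 min, where 2 genes passed. MCD1, the cohesin subunit cleaved at anaphase, was at 1.51, 1.19 and -7e-04 against 0.46, 0.78 and 0.40 (0.35 ± 0.26, limma adjusted p = 0.4707). It was higher at 10 and 20 min and lower at 30 min. After quantile normalization, which removes the wider spread of the earlier arrays, the mean difference of MCD1 was -0.0934. For SWI4 and YOX1 it was -0.103 in both.

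Helicase and origin genes went the other way without passing the test, with 11 of 14 below 0 and a median of -0.24. MCM5, a subunit of the replicative helicase, was at 1.06, -0.60 and -1.37 against 0.87, -0.06 and -0.52, the steeper fall being on the earlier side (-0.40 ± 0.20, limma adjusted p = 0.3119). The histone genes had a median difference of -0.13 with none of 10 past the test. The sign of the list turned with the setting: the median was 0.149 without the pair of 10 and 70 min and 0.187 after quantile normalization, with 10 of 10 above 0 in each, and 0.75 with pairs 50 min apart. HTA1, encoding histone H2A, was at -2.62, 0.05 and 0.74 against -1.66, 0.10 and 0.53, and HTB1, encoding H2B, at -2.48, 0.25 and 0.84 against -1.74, 0.11 and 0.62. The earlier side began lower and ended higher in both. Histone copies are near-identical and may not be separate measurements on these arrays.

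Genes of G2 and mitosis were lower after the release in 25 of 27 cases, with a median difference of -0.66. In 11 the sides did not overlap, all lower at 10 to 30 min (40.7%, against 13.3% of all tested genes). The test was passed by 3 (11.1% called, against 1.86% of all tested genes). They were CDC20, which activates the ligase that triggers anaphase, at -0.81, SPO12, a regulator of mitotic exit, at -0.80, and MYO1, the myosin of the contractile ring, at -0.79. CLB2, the main mitotic cyclin, was at -2.13, -2.40 and -0.79 against -0.24, -0.95 and -0.34, a difference of -1.26 ± 0.26 that missed the threshold (limma adjusted p = 0.07765). Only its value at 30 min came within the range of the later side. The 3 calls were 0 with pairs 50 min apart, in the unpaired fit and without either of the first pairs, and 12 without the pair of 30 and 90 min.

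Budding and wall genes were balanced, with 17 of 35 above 0 and 18 below and a median of -0.01. The test was passed by 3 as lower (8.57% called, against 1.86% of all tested genes). They were EXG1, an exoglucanase of the wall, at -1.05, BUD9, a landmark for budding at the birth pole, at -0.90, and CHS1. PST1, a wall protein of another list, was called at -0.95. Among 13 genes of PIR and other wall mannoproteins it was the single call (7.69%, against 1.86% of all tested genes). PIR1, which cross-links wall glucan, was at -0.55 ± 0.22 (limma adjusted p = 0.2254). Spindle and kinetochore genes had 29 of 37 above 0, a median of 0.09 and no call.

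The pheromone pathway was lower at 10 to 30 min than a cycle later in much of its signalling part. Of 20 genes of signalling and feedback, 18 were below 0, and 5 passed as lower and 1 as higher (30% called, against 1.86% of all tested genes). In 10 the sides did not overlap with the earlier one lower (50%, against 13.3% of all tested genes). BAR1, the secreted protease that degrades alpha factor, was at 2.40 at 0 min, at -1.05, -2.16 and -2.90 at 10, 20 and 30 min and at 0.33, -0.29 and -1.37 at 70, 80 and 90 min. It decreased along both sides, so the groups overlapped, but it was lower by a similar amount in each pair (-1.60 ± 0.13, limma adjusted p = 0.008628). FUS3, the pathway's MAP kinase, STE12, its transcription factor, and DIG1, a repressor of Ste12, had differences of -0.78, -0.78 and -0.82, and were named after their values were seen. DIG2, the other Ste12 repressor, was the exception at 1.24, 1.34 and 1.14 against 0.32, 0.29 and 0.18, a difference of 0.98 ± 0.10 (limma adjusted p = 0.01698). The 5 lower calls were 0 after quantile normalization.

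The genes that the pathway switches on for mating and those specific to MATa cells gave no common direction. Of 22 mating effectors 16 were above 0, with a median of 0.32 and no call. Without the pair of 10 and 70 min the median was 0.0204, with 11 above and 11 below. In 4 each the sides did not overlap one way and the other. That was 18.2% each way, near the 12.3% higher and 13.3% lower of all tested genes. FIG1, a membrane protein of mating, was at 2.64, 1.0 and 2.46 against 0.11, 0.15 and 0.12 after 4.77 at 0 min, with an adjusted p of 0.0519 by limma. It was named after its values were seen. FUS1, a cell fusion protein, was at -0.88, -0.72 and -0.55 against 0.02, 0.16 and -0.17, below the later side on all arrays (-0.72 ± 0.14, limma adjusted p = 0.06961). MFA1, encoding the pheromone of MATa cells, was at 2.76, 0.42 and -1.0 against -0.18, -0.78 and -1.03, high on the first array only. STE2, the alpha factor receptor, had a mean difference of -0.73 ± 0.20 (limma adjusted p = 0.129), which was 0.105 after quantile normalization. Of the 7 MATa-specific genes, 3 were above 0 and 4 below, with a median of -0.453, or 0.105 after quantile normalization. Their 1 call was BAR1, as lower (14.3%, against 1.86% of all tested genes). The 4 MATalpha-specific genes had a median of -0.14 and no call, and ratios to a reference cannot show whether such transcripts were absent.

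Of the 57 genes called as higher, 13 were in a list, most often that of methionine synthesis and sulfate uptake. Of 25 methionine and sulfate genes tested, 24 were above 0, with a median difference of 0.66. The test was passed by 7 as higher and none as lower (28% called, against 1.86% of all tested genes). In 18 the sides did not overlap, with the earlier side higher (72%, against 12.3% of all tested genes). MET3, ATP sulfurylase and thus the first enzyme of sulfate assimilation, was at 2.31, 1.95 and 1.80 against 0.65, 0.46 and 0.33. All 3 earlier arrays were well above the later ones (1.54 ± 0.11, limma adjusted p = 0.007579). MET10, a subunit of sulfite reductase, was at 1.03 ± 0.11 and MUP3, a methionine permease, at 1.05 ± 0.16. The other 4 called members were MET5, SUL2, STR3 and SAM2, named after their values were seen, at 0.87, 0.95, 0.93 and 0.73. The list's median was already 0.88 at 0 min, and at 40 and 50 min it was 0.56 and 0.44. The count of 7 was 2 after quantile normalization, with a median of 0.38, and 0 without the pair of 20 and 80 min.

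Phosphate genes gave 3 calls, all higher, out of 23 (13%, against 1.86% of all tested genes), with a median of 0.34. GIT1, a permease for glycerophosphoinositol, was at 2.38, 1.56 and 1.58 against -0.27, -0.40 and -0.33, a difference of 2.17 ± 0.17 with no overlap (limma adjusted p = 0.007579). PHO89, a sodium-dependent phosphate transporter, was at 1.16, 0.42 and 0.47 against -0.05, -0.91 and -1.50 (1.505 ± 0.17, limma adjusted p = 0.02244). PHO12, an acid phosphatase nearly identical to PHO11, was at 0.96, 0.67 and -0.04 against 0.28, -0.73 and -1.57, falling along both sides. Its difference was 1.20 ± 0.18 (limma adjusted p = 0.04172). Among 29 stress genes, HSP104, which dissolves protein aggregates, and HSP26, a small heat shock protein, passed at 0.90 and 1.14, with 22 of 29 above 0. Calls made up 6.9% of the stress genes, against 1.86% of all tested genes. The median of this list was 0.16, and 0.0252 after quantile normalization.

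Several of the largest positive differences belonged to genes outside the lists. NCE103, carbonic anhydrase, was at -0.16 at 0 min, at 3.01, 2.24 and 1.81 at 10, 20 and 30 min and at 0.10, 0.25 and 0.30 at 70, 80 and 90 min. The 3 earlier arrays stood clear of the 0 min array of the same stamp as well as of the later ones (2.14 ± 0.26, limma adjusted p = 0.0271). OPI3, a methyltransferase of phosphatidylcholine synthesis, was at 1.22, 1.33 and 0.87 against -0.38, -0.09 and -0.57 (1.49 ± 0.10, limma adjusted p = 0.007579). PYC1, pyruvate carboxylase, and ATG41, a protein of autophagy, were higher by 1.45 ± 0.23 and 1.39 ± 0.12. MRH1, a plasma membrane protein, was on the other side at -2.27, -2.78 and -3.08 against 1.04, -0.23 and -1.53 (-2.47 ± 0.31, limma adjusted p = 0.02852).

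YIL082W had the largest positive difference, 3.17 ± 0.19 (limma adjusted p = 0.005697), with 5.01, 4.53 and 4.05 against 1.47, 1.91 and 0.71. It is not in the gene table, and YIL082W-A and YNL208W, called at 1.95 and 1.62, are listed there without a name. At 0 min YIL082W was already at 5.02 and YIL082W-A at 5.22. At 40 min, on the later stamp, they were at 2.845 and 3.445. YIL082W and YIL082W-A share a locus number and their spots may share signal. Some rows that hold no yeast gene were also high at 10 to 30 min: on the log10 scale the row of unnamed blanks ranged from 1.98 to 2 at 10 to 30 min and from 0.063 to 0.399 at 70 to 90 min. The empty row ranged from 1.97 to 2 and from 0.064 to 0.448, and the Lambda control row from 0.014 to 2 and from 0.123 to 0.386. Some of these earlier values lie at the measuring limit. At 60 min, on an array of the later stamp, the row of unnamed blanks was at 1.976 and the empty row at 1.468, while YIL082W was at 2.17 log2 and YNL208W at 0.24. At 40 and 120 min the row of unnamed blanks was at -1.074 and -1.85, and the empty row at -0.563 and -0.543. Whether the higher genes share in what raised these rows at 10 to 30 min was not tested.

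**Figure D4:**
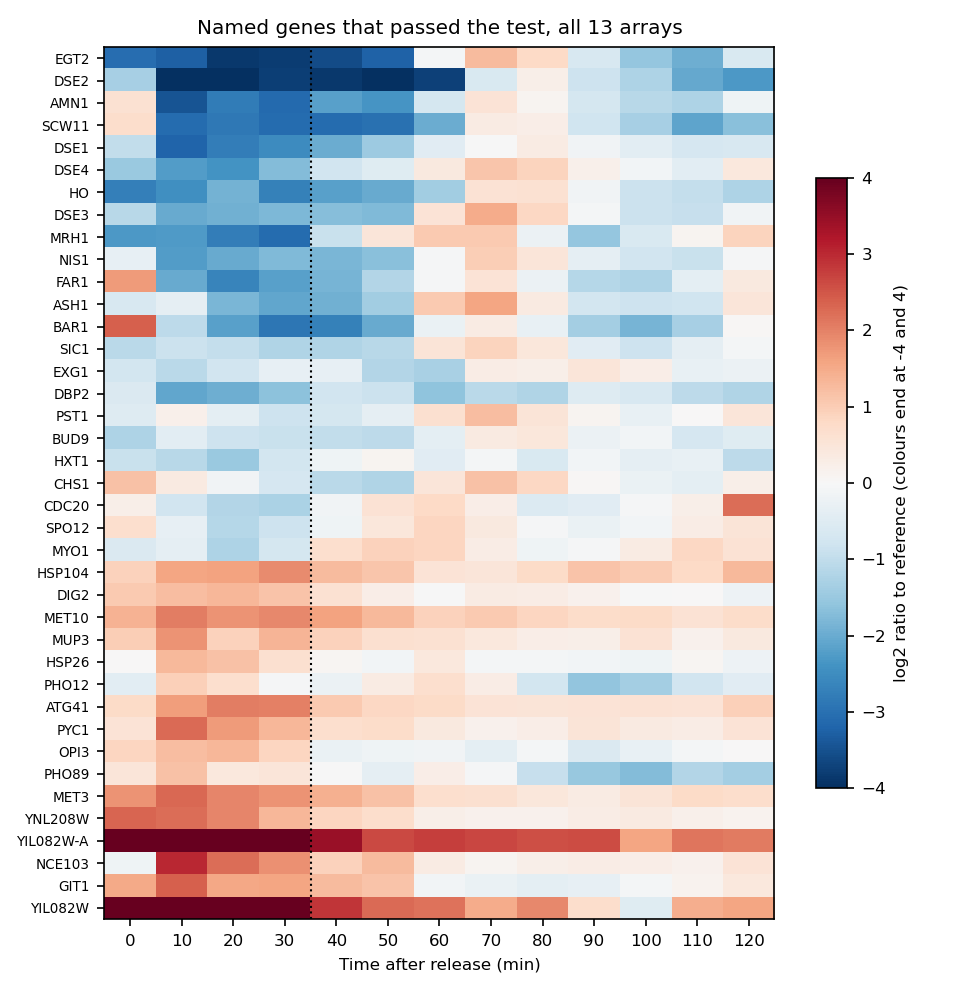
Log2 ratio to the reference (colour, blue below and red above 0, ending at -4 and 4) of the 39 named genes that passed the test (rows) on the 13 arrays by time after release in min (columns); the dotted line separates the file stamps. Most genes at the top are blue from 10 to 50 min, on both sides of the line, and red at 70 min, and those at the bottom fade in steps after 30 min.

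Growth genes gave few calls. Ribosome biogenesis genes were below 0 in 57 of 66 cases with a median of -0.19, but after quantile normalization the median was 0.10. Their 1 call (1.52%, against 1.86% of all tested genes) was DBP2, an RNA helicase, at -0.97. Cytosolic ribosomal protein genes were picked by symbol, which also took in RPP1 of RNase P. The 137 tested had a median of -0.08 and no call. In 28 of them (20.4%, against 13.3% of all tested genes) the earlier side was lower without overlap. Glycolysis, oxidative phosphorylation, ER folding and proteasome genes had no call, with medians of 0.09, 0.02, 0.12 and -0.07. Hexose transporters had 1 call (5.26%, against 1.86% of all tested genes), HXT1, a low-affinity carrier, at -0.84.

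The called genes were also read on arrays that the comparison did not use. The 0 min array shares the stamp of 10 to 30 min. On it, 32 of the 54 called as lower lay below their lowest value of 70 to 90 min (59.3%, against 31.8% of all tested genes). Another 12 lay above their highest (22.2% against 36%). Of the 57 called as higher, 38 lay above their highest (66.7% against 36%) and 12 below their lowest (21.1% against 31.8%). Of the 54 called as lower, 42 lay below their lowest value of 70 to 90 min at 40 min (77.8%, against 24.5% of all tested genes) and 40 at 50 min (74.1% against 23.9%). At 60 min it was 17 (31.5% against 30.9%). Of the 57 called as higher, 38 lay above their highest value of 70 to 90 min at 40 min (66.7% against 35.7%), 31 at 50 min (54.4% against 34.2%) and 19 at 60 min (33.3% against 31.6%). These shares use the same 70 to 90 min arrays as the calls and carry no test. The genes were chosen for lying apart from those arrays, so the shares describe the calls and are no separate evidence. The median ratio of the called lower genes went from -1.23 at 30 min to -0.81 at 40 min, -0.79 at 50 min and 0.05 at 60 min. That of the called higher genes went from 1.12 at 30 min to 0.51, 0.38 and 0.28.

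For comparison, the arrays at 40, 50 and 60 min were paired with those at 100, 110 and 120 min, also 60 min apart but all with the same stamp. Of 6129 genes tested by limma, 2 were higher at the earlier times (0.0326%), PHO12 at 1.10 and PHO11, another acid phosphatase, at 1.07. Another 2 were lower (0.0326%), CWP1, a wall mannoprotein, at -1.38 and DSE2 at -2.04. At an unadjusted p under 0.05 there were 708. The typical spread of the 3 differences was alike in the comparisons, with a median SD of 0.181 here and 0.188 at G1/S. Of these calls, DSE2 and PHO12 passed at G1/S as well, in the same direction.

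Whether a gene's difference itself differed between the comparisons was tested with limma in 5892 genes, 109 of the 111 called ones among them. With adjustment over all of them 2 genes were more positive at G1/S (0.0339%) and 1 more negative (0.017%), and 907 had an unadjusted p under 0.05. OPI3 had a difference of 1.49 at G1/S and -0.07 in the other comparison (1.55 ± 0.14 apart, adjusted p = 0.01351). ARG1, argininosuccinate synthetase, had 1.08 and -0.58 (1.66 ± 0.20 apart, limma adjusted p = 0.04414). YNL058C, listed without a name, had -1.65 and 0.20 (-1.84 ± 0.21 apart, limma adjusted p = 0.04414). None of the 18 daughter separation genes passed this test: EGT2 had -4.11 and -0.93 (limma adjusted p = 0.109) and DSE4 -2.85 and -0.24 (limma adjusted p = 0.0669). HO, which is in no list, did not pass either, with -2.70 and -0.84 (limma adjusted p = 0.0716). PHO89 and PHO12 had nearly equal differences in the comparisons, 1.505 and 1.40, and 1.20 and 1.10. ARG1 and YNL058C, like PHO11 and CWP1, were named after their values were seen.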

How the data were processed

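The 13 samples were hybridised on 2-colour arrays, 1 per time point, with Cy5 on the time point and Cy3 on an asynchronous reference, per the labels. The authors deposited one log10 ratio for each row and array. Its base was read from the values, which end at 2 and -2. The sources used here do not give the normalization, background correction or flagging. Values of size 1.99 or more were treated as missing, and the rest were multiplied by 3.32 to give log2. The table holds 6205 gene rows, of which 5704 matched RefSeq's R64 gene table by ID. Another 12 rows, all controls, stayed untested. Array medians lay from -0.0113 to 0.0181 log2 on the 6 arrays.

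The 3 paired log2 differences were tested against 0 with limma 3.58.1 (lmFit, eBayes) in R 4.3.3, with Benjamini-Hochberg adjustment over 5957 genes and a threshold of 0.05. The fit had 2 residual degrees of freedom per gene and a prior of 4.02. Each SE printed after ± comes from this moderated variance and not from the gene's own differences alone. The same fit was run on 40 to 60 against 100 to 120 min, and the difference between the comparisons over 5892 genes. Only limma's moderated test on 3 differences per gene was tried on simulated data. The reading, masking, pairing, list and between-comparison steps were not. The number of arrays, 6, limits the precision. Named genes are 26 chosen by role, up to 3 called members of each of 24 lists with the largest difference, and the 10 largest calls in each direction. The members, lists and genes were chosen with earlier results of these data known. Alternatives were centring, quantile normalization, keeping values at the limit, at least 2 of 3 differences, pairs 50 or 70 min apart, an unpaired fit, robust, trended or no shared variance, and leaving out each pair. The trend was over the mean size of a gene's own differences, not over signal intensity. Plots used Python 3.11.15, pandas 2.3.3, NumPy 2.4.6 and matplotlib 3.10.9.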

Additional observations from a re-analysis of the deposited data

Results flagged for a closer look

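High ratios were seen in rows that hold no yeast gene and enter no comparison. They were 3 control rows: the row of unnamed blanks, the empty row and the Lambda control row. Their means were at least 1 log10 higher at 10 to 30 min than at 70 to 90 min. The rows differed by at least 1.78, 1.7 and 1.06. These are lower bounds, since some of their values at 10 to 30 min lie at the measuring limit, as does that of the Phi174 control row at 10 min. At 60 min, on an array of the later stamp, the row of unnamed blanks was at 1.976, the empty row at 1.468 and the Lambda control row at -0.016. At 40 and 120 min the unnamed blanks were at -1.074 and -1.85, and the empty row at -0.563 and -0.543. A separate row named blank had means of 0.004 at 10 to 30 min and -0.024 at 70 to 90 min. Those of the E. coli control were 0.357 and 0.252, and of the Human control 0.276 and 0.243. Such ratios do not give the signal of either dye.

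The 60 min difference of 3 genes, OPI3, ARG1 and YNL058C, differed between the G1/S comparison and that of 40 to 60 with 100 to 120 min, by limma's test of the difference itself. The G1/S comparison spans both file stamps and the other does not, so stamp and position in the cycle cannot be told apart here. Without the pair of 10 and 70 min, or with any one pair of the other comparison left out, no gene passed.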

How the results depend on the processing

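The direction of the 39 called named genes was kept under each of the 13 alternatives, while none of these calls survived with values at the limit kept or with no shared variance. The 57 genes called higher became 23 after quantile normalization, 2 with values at the limit kept, 5 with pairs 50 min apart, 1 with a trended prior and 0 with no shared variance, and the 54 called lower became 0, 14, 9 and 0 under the last 4. With values at the limit kept the prior had 2.17 degrees of freedom against 4.02, with 6111 genes tested, and the cause was not tested. Leaving out a pair gave 4 to 123 higher and 4 to 121 lower. The 39 genes past 2-fold on the higher side became 20 after quantile normalization, 87 with values at the limit kept, 59 with pairs 70 min apart and 40 to 68 without a pair. Of the 4 calls at 40 to 60 min, 0 were left with values at the limit kept and 0 to 3 without a pair. The 3 calls of the difference became 0 after quantile normalization, 7 with robust shrinkage and 0 to 42 without a pair.

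Of 780 values of named genes 25 changed sign, all in genes that were not called. Quantile normalization did so for STE2 (0.105), HTA1 (0.188), HTB1 (0.281), MCD1 (-0.0934), SWI4 (-0.103) and YOX1 (-0.103), and centring for CLN1 (0.00485). Pairs 50 min apart did so for HTA1 (0.741), HTB1 (0.758), CLN2 (0.697), HCM1 (0.282) and CLN1 (0.347). Pairs 70 min apart did so for MCM5 (0.15), CLN3 (0.0948), HCM1 (0.0701) and CLN1 (0.135). Leaving out a pair moved the mean differences over ranges that cross 0 for HTA1 (-0.5 to 0.083), HTB1 (-0.303 to 0.173), CLN2 (-0.425 to 0.288), HCM1 (-0.223 to 0.0627), CTS1 (-0.119 to 0.0397) and CLN1 (-0.222 to 0.162). Of 216 medians of lists 21 moved by more than the SD of the list median over the 3 pairs, among them helicase and origin genes with pairs 70 min apart (-0.00382) and, after quantile normalization, MATa-specific (0.105), hexose transport (-0.181) and oxidative phosphorylation genes (-0.124). No paired analysis by replicate number was possible because the labels carry none and no array was repeated. With 3 differences per gene, each from arrays made once, genes that missed the threshold may still differ.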
